A study of Rattus norvegicus with 4 samples.

Results

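The genes of the phagocyte NADPH oxidase (Cybb, Cyba, Ncf1, Ncf4, Rac1 and Rac2) and Nos2, the inducible nitric oxide synthase gene, are described in rat macrophages exposed to titanium dioxide. They were chosen by name as enzymes of the respiratory burst, with earlier results of these data known, and all 7 were found among the 16581 genes named on the arrays. They were read by 9 probes at 27 spots on each array. The cells were NR8383, an established line of alveolar macrophages from the lung of a normal rat, taken after 20 passages. All 4 cultures, replicates 1 to 4 and biological ones per the study's design text, were exposed for 4 h to NM105 (P25), a titanium dioxide of anatase and rutile, at a particle surface of 3 cm2 for each cm2 of culture. The untreated cultures of the study were not analysed here. No value below is therefore a response to the particles, and the 4 arrays form 1 group.

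Phagocytes make superoxide with an enzyme that is put together on demand. Cybb encodes gp91phox (NOX2), the catalytic subunit, which passes electrons from NADPH across the membrane to oxygen, and Cyba encodes p22phox, its membrane partner, without which gp91phox is unstable. The cytosolic subunits p47phox (Ncf1) and p40phox (Ncf4), among others, join them on activation together with a Rac GTPase. Nos2 makes nitric oxide from arginine and is transcribed after stimulation with bacterial products or interferon. Rodent macrophages are known for a strong Nos2 response.

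The promoters of Cybb and Cyba are shown because these genes encode the dimer that sits in the membrane, and in these cells only Cyba of the pair was detected. The sequences are from RefSeq, build GRCr8, and are the 250 bases before the annotated start, written 5′ to 3′ on the gene's strand, with every match to the motifs below in capitals. That table held 3 of the 7 genes.
Cybb, chrX:16065066-16065315, minus strand: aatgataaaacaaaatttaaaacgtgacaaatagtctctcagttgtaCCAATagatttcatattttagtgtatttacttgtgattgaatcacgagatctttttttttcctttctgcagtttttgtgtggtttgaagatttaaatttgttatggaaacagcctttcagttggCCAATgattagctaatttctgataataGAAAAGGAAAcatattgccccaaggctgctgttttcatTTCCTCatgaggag
Cyba, chr19:67404215-67404464, minus strand: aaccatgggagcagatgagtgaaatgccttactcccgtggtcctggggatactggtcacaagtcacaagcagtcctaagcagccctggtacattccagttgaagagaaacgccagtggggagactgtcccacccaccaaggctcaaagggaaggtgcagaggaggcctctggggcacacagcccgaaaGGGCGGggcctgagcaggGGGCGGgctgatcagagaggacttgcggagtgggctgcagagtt
Both strands were searched for the PU.1 core GAGGAA, the CCAAT box, the TATA box TATAAA, the GC box GGGCGG and an interferon factor element of 2 GAAA repeats set 2 bases apart. PU.1 is a transcription factor of the myeloid lineage, and interferon regulatory factors bind repeats of GAAA. The Cybb window held 1 PU.1 core, on the opposite strand, starting 14 bases before the start, 2 CCAAT boxes at 203 and 79 bases, and 1 interferon factor element at 52 bases. The Cyba window held 2 GC boxes, at 62 and 44 bases, and none of the other motifs, and the Cybb window had no TATA box or GC box. No 2 matches overlapped. Of 33469 rat promoter windows of this length, 23.3% held the PU.1 core, 34.0% CCAAT, 12.9% TATAAA, 30.5% the GC box and 3.41% the interferon factor element. G and C made up 32.0% of the Cybb window and 59.6% of the Cyba window, against a median of 51.2% over all windows. Such matches describe letters only.

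Signal well above background, the scanner software's call for a spot, was found on all 4 arrays for 5 of the 7 genes, Cyba, Ncf1, Ncf4, Rac1 and Rac2. It was found on no array for Cybb and Nos2. The 5 of 7 (71.4%) stand beside 5830 of all 16581 named genes (35.2%). The count stayed at 5 of 7 when every probe of a gene had to pass, when 1 array was enough, and when signal had to exceed the 99th percentile of negative control spots. The share of all named genes was then 29.9%, 46.3% and 44.4%. The arrays differed in brightness. Each array's reference, the 75th percentile over probes detected throughout, stood at 1431, 585, 767 and 831 intensity units for replicates 1 to 4, and no gene spot was saturated.

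**Figure D1:**
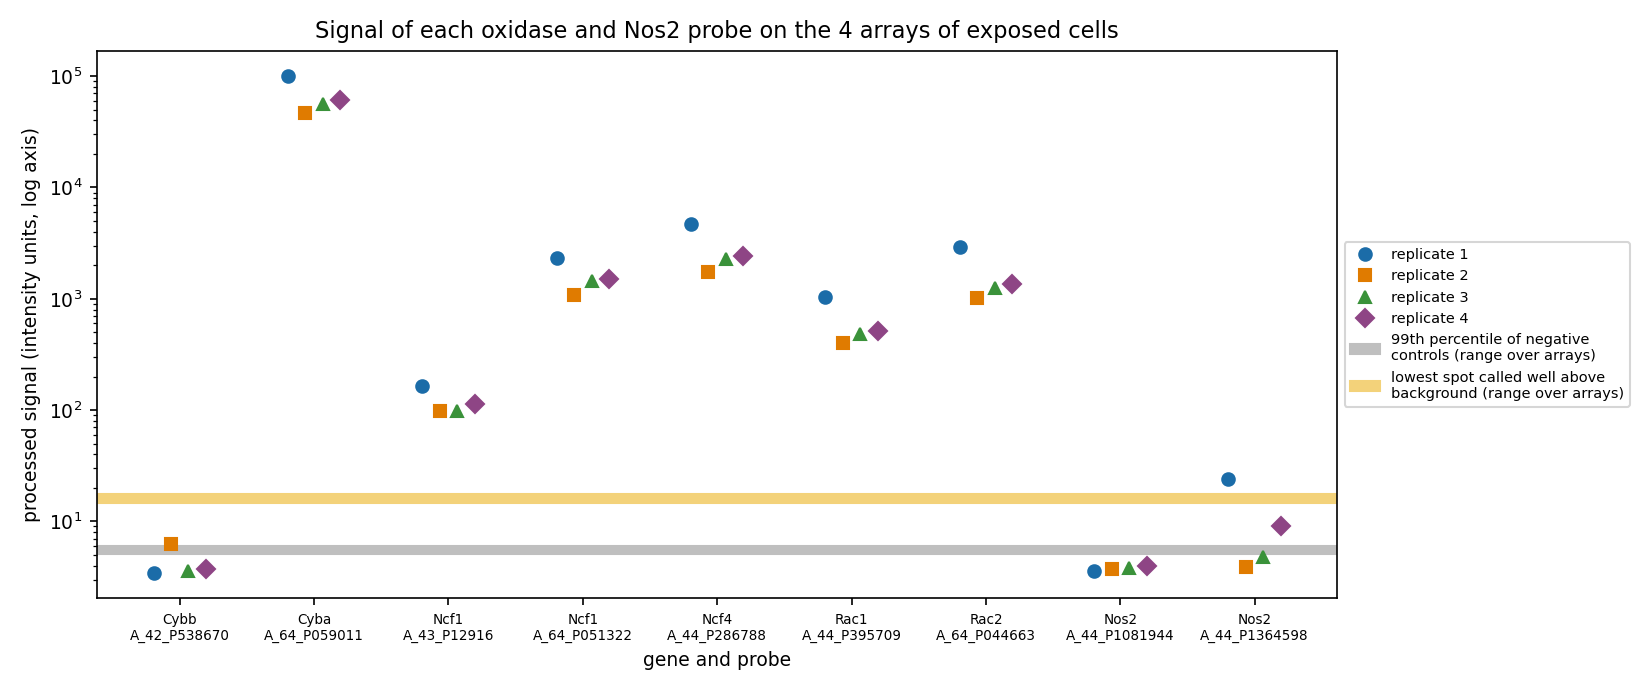
Processed signal (intensity units, log axis) of each probe of the 7 genes on the 4 arrays, with the range over arrays of the 99th percentile of negative controls (5.07 to 5.96, grey) and of the lowest spot called well above background (14.5 to 17.7, yellow). The probes of Cybb and Nos2 lie at or near these bands, and the 6 probes of the other genes lie at 97.2 units or above.

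Cybb, the catalytic subunit, was at the floor of the measurement. Its only probe, printed at 1 spot, read 3.41, 6.30, 3.56 and 3.73 intensity units for replicates 1 to 4. The scanner software's own error for these spots was 3.42, 3.56, 3.58 and 3.75 units, as large as the signal on 3 of the 4 arrays. Replicate 2 alone exceeded the negative controls' 99th percentile, 5.48 units there, and was the only array on which the spot was marked positive and significant. The spot outshone 130 of 304 negative control spots in replicate 1, 300 of 302 in replicate 2, 123 of 304 in replicate 3 and 112 of 305 in replicate 4. The lowest gene spot that was called well above background read 14.5, 15.5, 15.9 and 17.7 units on replicates 1 to 4, which was 4.24, 2.46, 4.45 and 4.74 times the Cybb signal. Cybb signal was not detectable at this sensitivity. Its probe belongs to a series with names that start with A_42, and 1215 of the 2751 probes of that series (44.2%) were detected on all 4 arrays, against 22.9% of all gene probes. A series rate does not tell how well this single probe binds its target, which was not tested. In RNA from a whole culture, fewer cells with a transcript and less of it in each cell cannot be told apart.

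Cyba, the membrane partner, gave strong signal. Its probe, printed at 10 spots, averaged 101071, 47065, 56391 and 61255 intensity units for replicates 1 to 4 (geometric means of 8, 9, 9 and 9 spots left after outlier spots were dropped). Relative to each array's own reference, the 75th percentile given above, its log2 level was 6.14, 6.33, 6.20 and 6.20 on replicates 1 to 4, a mean of 6.22 ± 0.08 (SD, n = 4). The array order in raw signal and in level is thus opposite at its ends, since replicate 1 is the brightest array. The highest level, on replicate 2, was 1.14-fold above the lowest, on replicate 1. One gene's level cannot be set against another's, because probes differ in brightness.

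The cytosolic subunits were detected by all 3 of their probes. For Ncf1, which encodes the organiser p47phox, the brighter of its 2 probes (A_64_P051322) read 2342, 1086, 1435 and 1494 units on replicates 1 to 4. Its log2 level was 0.71, 0.89, 0.90 and 0.85, a mean of 0.84 ± 0.09 (SD, n = 4), with replicate 1 lowest. The second Ncf1 probe (A_43_P12916), listed under the same transcript, was far dimmer at 163, 97.9, 97.2 and 113 units. Its log2 level was −3.13, −2.58, −2.98 and −2.88, a mean of −2.89 ± 0.23 (SD, n = 4), again lowest on replicate 1, with replicate 2 highest. Under the scaling used, the probes therefore share the lowest array and not the highest. The fold between highest and lowest array was 1.14 for the brighter probe and 1.47 for the dimmer one. Under scaling to the median of detected probes or to the 75th percentile of all probes, the brighter probe too was highest on replicate 2. Ncf4, which encodes p40phox, read 4695, 1735, 2270 and 2440 units. Its log2 level was 1.71 on replicate 1 against 1.57, 1.57 and 1.55 on replicates 2 to 4, a mean of 1.60 ± 0.08 (SD, n = 4). Replicate 1 was highest, and that order depends on the scaling: replicate 1 was lowest under normexp background correction and second under scaling to the 75th percentile of all probes.

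The Rac GTPases, which switch the assembled oxidase on, were both detected. Rac2, the form of blood cells, was printed at 10 spots and averaged 2910, 1019, 1254 and 1370 units for replicates 1 to 4. Its log2 level was 1.02, 0.80, 0.71 and 0.72, a mean of 0.81 ± 0.15 (SD, n = 4), with replicate 1 highest and 1.24-fold above replicate 3, the lowest. Rac1, the form found in most cell types, has 1 probe at 1 spot, which read 1029, 401, 481 and 516 units. Its log2 level was −0.48, −0.54, −0.67 and −0.69, a mean of −0.60 ± 0.10 (SD, n = 4). Replicate 1 was highest and replicate 4 lowest, 1.16-fold apart, while under scaling to the median of detected probes or to the 75th percentile of all probes replicate 2 was highest. Rac1 and Rac2 are close relatives, and whether either probe takes up RNA of the other gene was not tested.

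Neither Nos2 probe, each at 1 spot, was called well above background on any array. One (A_44_P1081944) read 3.58, 3.76, 3.81 and 3.96 units on replicates 1 to 4, under the negative controls' 99th percentile on every array. The other (A_44_P1364598) read 23.9, 3.93, 4.84 and 9.13 units. It lay above that percentile on replicate 1, at 4.25 times its value, and on replicate 4, at 1.53 times, and below it on replicates 2 and 3. On replicate 1 it was brighter than all 304 negative control spots used and than the lowest gene spot called well above background, 14.5 units, yet was not itself so called. It was brighter than all 305 negative control spots on replicate 4, 299 of 304 on replicate 3 and 233 of 302 on replicate 2. This probe was marked positive and significant on replicates 1, 3 and 4, and the first one on replicate 3 only. Both probes are listed under the same Nos2 transcript, and they disagree on replicates 1 and 4. Their names start with A_44, a series in which 5694 of 30554 probes (18.6%) were detected on all 4 arrays. How well they bind was not tested. The 23.9 units on replicate 1 rest on 1 spot with a scanner error of 4.23 units.

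The next question was whether the levels differed between the 4 cultures' arrays by more than the spots of a probe do. Only Cyba and Rac2 are printed at several spots and could be tested, by limma's moderated F, taking an array's spots as its replicates, with Benjamini-Hochberg adjustment over 1594 such probes. Spots of an array share the RNA of 1 culture, so the test takes culture, extraction, labelling and hybridisation together. Rac2 differed between arrays (limma adjusted p = 1.04e-05) and Cyba did not pass (limma adjusted p = 0.127). The call for 1 of the 2 stands beside 85.2% of all probes tested, so it is no mark of this gene. The median of highest over lowest array was 1.38-fold over all probes tested, against 1.24-fold for Rac2 and 1.14-fold for Cyba. With a minimum of 1.5-fold between arrays neither was called, beside 27.2% of probes, and with 2-fold neither, beside 4.64%, although Rac2 had an unadjusted limma p of 5.01e-06. In pairs of arrays, Rac2 was higher on replicate 1 than on replicate 2 by 0.22 ± 0.06 (SE, log2, limma adjusted p = 0.00122), than on replicate 3 by 0.32 ± 0.06 (limma adjusted p = 1.21e-05) and than on replicate 4 by 0.30 ± 0.05 (limma adjusted p = 1.55e-05). Among replicates 2, 3 and 4 no Rac2 pair passed, with limma adjusted p from 0.146 to 0.856. Pairs were tested under the scaling used only, and the Rac2 gap between replicates 1 and 2 depends on it. Scaled to the median of detected probes, Rac2 was at 2.99, 2.90, 2.76 and 2.79 on replicates 1 to 4. Scaled to the 75th percentile of all probes, Rac2 was at 6.09, 6.06, 5.85 and 5.93. For Cyba 1 of 6 pairs passed, replicate 1 minus replicate 2 at −0.19 ± 0.08 (SE, log2, limma adjusted p = 0.0360).

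**Figure D2:**
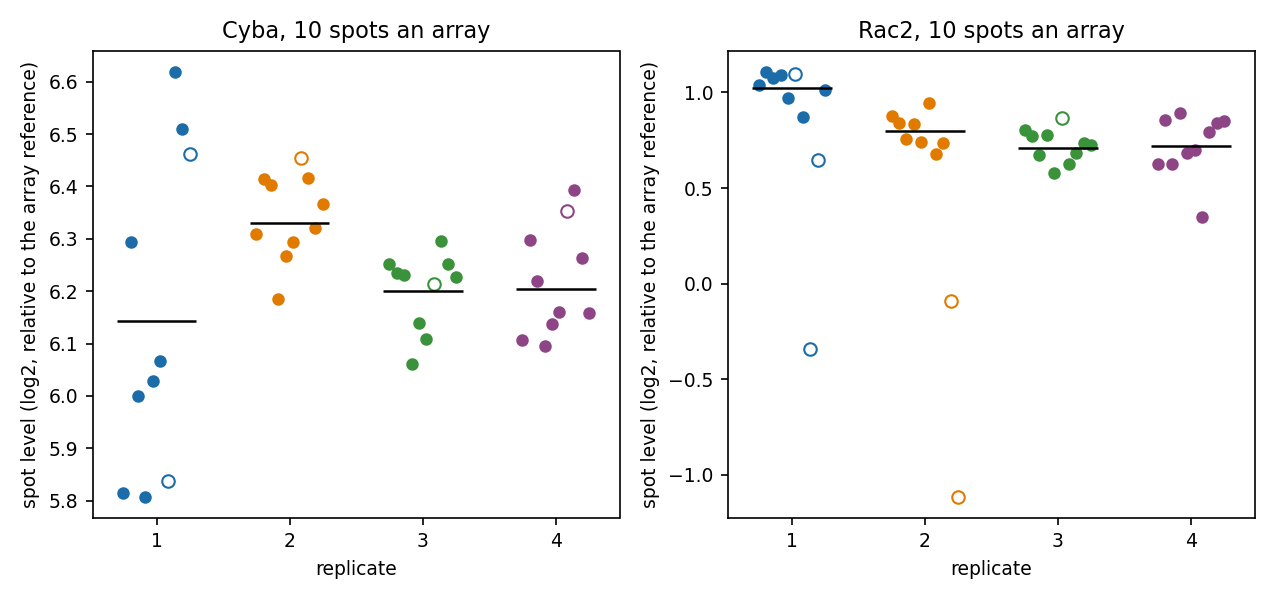
Level of every spot of Cyba (left) and Rac2 (right) on replicates 1 to 4, as log2 relative to the array reference. Filled points were used, open points were marked as outliers by the scanner software and left out, and the black line is the mean of the filled points: Rac2 means run from 0.71 to 1.02, and the Cyba spots of replicate 1 are the most spread.

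The Rac2 call rests on 1 array and on the dropped spots. Without replicate 1 the limma adjusted p was 0.266. Of the 6 Rac2 spots left out as outliers over the 4 arrays, 4 were dimmer than every spot kept on their array. They read 1129 and 2243 units on replicate 1, against 2621 to 3082 for the spots kept, and 548 and 270 units on replicate 2, against 934 to 1126. With outlier spots kept, the limma adjusted p of Rac2 was 0.331, and replicate 1 was still the highest array, at 0.86 against 0.53, 0.73 and 0.73 on replicates 2 to 4.

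The Cyba spots spread most on 1 array. The coefficient of variation of its kept spots was 21.8% on replicate 1 and 5.30%, 5.35% and 6.98% on replicates 2 to 4. On replicate 1 the 6 kept spots in the top part of the array read 80141 to 112227 units and the 2 in the bottom part 130429 and 140564. The same 8 spots had a coefficient of variation of 3.19% in the unsubtracted median signal, where they ran from 84906 to 94200 units. The larger spread is therefore present in the processed signal of replicate 1 and not in the unsubtracted one. Without replicate 1 the limma adjusted p of Cyba was 0.00715, with replicate 2 highest at a range of 1.09-fold. Cyba also passed with all 4 arrays under other processing, at a limma adjusted p of 0.00361 when scaled to the median of detected probes (the fold between highest and lowest array was then 1.25), 0.000189 after normexp correction and 0.00302 after quantile normalization. These settings called 1358, 1056 and 1300 of the 1594 probes in turn. The order of the Cyba arrays turned under quantile normalization, where replicate 1 was highest and replicate 2 lowest.

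The SDs of the 5 detected genes over the arrays ran from 0.08 for Ncf4 to 0.15 for Rac2 with a median of 0.089, against a median of 0.225 over all 5824 genes with a level on all 4 arrays. All 5 lay below that median, and below the median of 0.182 over the 1835 genes with a mean level at or above that of Rac1, the lowest of the 5. For Ncf1 this holds for the brighter probe, while the dimmer one had an SD of 0.23, above both medians. After normexp correction Rac2, at 0.184, lay just above the median of 0.183 over all genes. The SDs rest in part on single arrays. Without replicate 1 that of Ncf4 was 0.0069, of Ncf1 0.030, of Rac2 0.048 and their median 0.048, against 0.189 over all genes, and without replicate 2 that of Cyba was 0.034. For the genes with 1 spot, the scanner software's own error was 10.0% of the signal, and the highest array was 1.12-fold above the lowest for Ncf4, 1.14-fold for Ncf1 and 1.16-fold for Rac1, each without a test.

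**Figure D3:**
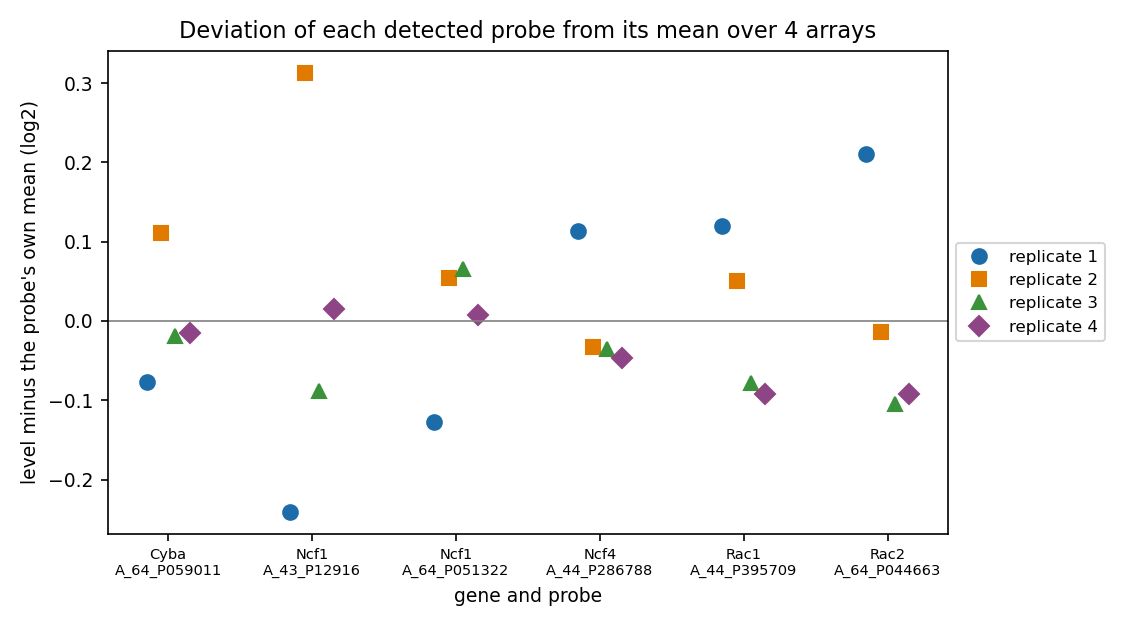
Deviation of each detected probe from its own mean over the 4 arrays (log2), one point for each replicate. Ncf4, Rac1 and Rac2 are highest on replicate 1 and Cyba and both Ncf1 probes lowest on it, and the dimmer Ncf1 probe spreads most (−0.24 to 0.31).

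A difference between genes on the same array does not move when that array is scaled by 1 factor, though it does with background correction or quantile normalization. The difference in level between Ncf4 and Rac1 had an SD of 0.06 over arrays, between Rac1 and Rac2 of 0.07 and between Cyba and Ncf1 of 0.07. Between Ncf1 and Rac2 it had an SD of 0.23, with Ncf1 minus Rac2 at −0.31 on replicate 1 and at 0.09, 0.19 and 0.13 on replicates 2 to 4. After normexp correction the SD for Ncf4 and Rac1 was 0.18, and for Cyba and Ncf4 it was 0.04 in place of 0.14. After quantile normalization the SD for Cyba and Ncf1 was 0.19, so which differences stayed steady depends on the processing. Over the 10 pairs the median SD was 0.135, against 0.329 over all 16956576 pairs of genes with a level. The SD of a difference carries the spread of both genes. That spread was already lower for the 5 genes, with a median SD of 0.089 against 0.225, so the gap does not measure shared movement. Pairs of genes of like brightness were not compared. Without replicate 1 the median over the 10 pairs was 0.049. Rac2 had the highest SD of the 5 under the scaling used, but not when scaled to the median of detected probes (Ncf1 0.14 and Cyba 0.13, against 0.11 for Rac2) or to the 75th percentile of all probes, without replicate 1, or with the mean over probes of a gene. Under the scaling used, the genes with array patterns most like it included Ndufb6 and Cers2, each at a root mean square difference of 0.016 over the 4 arrays. With 4 arrays such likeness is common: 555 of 5823 genes (9.53%) lay within 0.1 of Rac2.

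Other genes of the burst came from 8 pathway lists, and of their 94 measured genes 58 were detected on every array and 24 on none. Of all 16581 named genes, 35.2% were detected on every array and 8896 genes on none. The partners and regulators of NOX2 were detected in part: 13 of 22 on every array, 5 on some, 4 on none. Cybc1, whose protein helps gp91phox to mature in mouse and human, was at −1.81 ± 0.19 (SD, n = 4). The inhibitors that hold Rac proteins in the cytosol gave signal for Arhgdib, at 2.81 ± 0.16 (SD, n = 4), and Arhgdia, at 3.90 ± 0.16 (SD, n = 4), and not for Arhgdig. The Rac exchange factor gene Vav1 was at −2.83 ± 0.34 (SD, n = 4), and its counterpart Tiam1 was not detected on any array.

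No other catalytic NADPH oxidase subunit that was measured was detected. In the NOX family, Nox1, Nox3, Nox4, Noxa1, Duox1, Duox2 and Duoxa1 were not detected on any array, and only 1 of 8 measured genes was, Duoxa2, the maturation factor of Duox2. Duoxa2 was at −5.06, −4.41, −4.54 and −5.13 on replicates 1 to 4, a mean of −4.79 ± 0.36 (SD, n = 4). Of the other nitric oxide synthases, the neuronal gene Nos1 and the endothelial gene Nos3 were detected on no array, although Nos3 exceeded the 99th percentile of negative controls on 1.

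**Figure D4:**
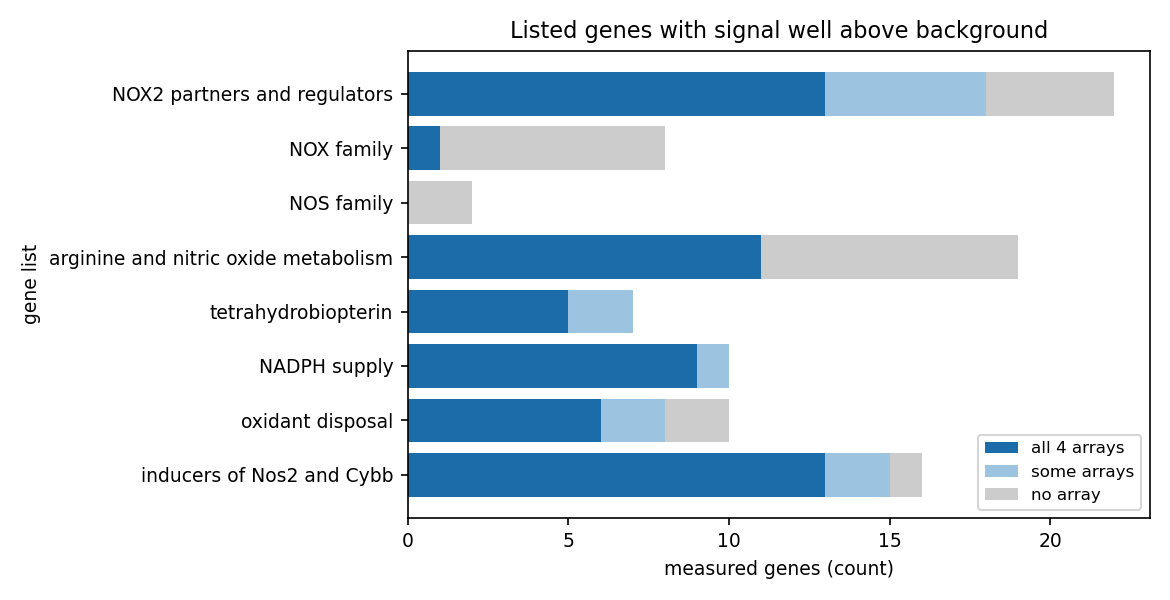
Number of measured genes on each of the 8 lists detected on every array (dark), on some (pale) or on none (grey). Of the 10 NADPH supply genes 9 are dark, and of the 8 NOX family genes 7 are grey.

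Of 10 measured NADPH supply genes, 9 were detected on every array and 1 on some. In the pentose phosphate pathway Pgls was at 2.13 ± 0.23 and Pgd at 0.07 ± 0.38, and the malic enzyme gene Me1 was at −0.67 ± 0.12 (SD, n = 4 each). Of 7 measured genes of tetrahydrobiopterin, the cofactor of nitric oxide synthase, 5 passed on every array and 2 on some. Gch1, the first enzyme of its synthesis, was at −0.64, −0.05, 0.29 and 0.46 on replicates 1 to 4, a mean of 0.02 ± 0.48 (SD, n = 4), with replicate 1 lowest. Its inhibitor gene Gchfr was at −1.26 ± 0.10, Spr at −1.69 ± 0.12 and Qdpr at 1.54 ± 0.13 (SD, n = 4 each).

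Genes of arginine and nitric oxide metabolism were split, with 11 of 19 detected on all 4 arrays and 8 on none. Arg1, which breaks arginine down and so competes with Nos2 for it, was at −2.15, −1.84, −1.16 and −1.77 on replicates 1 to 4, a mean of −1.73 ± 0.41 (SD, n = 4). Asl, which makes arginine from argininosuccinate, was at 1.03 ± 0.19 (SD, n = 4), while Ass1, the enzyme before it, and Arg2 were not detected on any array. The amino acid transporter genes Slc7a7 and Slc3a2 were at −3.44 ± 0.28 and 0.49 ± 0.27 (SD, n = 4 each). Of 10 measured genes of oxidant disposal, 6 were detected on every array, 2 on some and, on none, Sod3 and Epx. The superoxide dismutase genes Sod1 and Sod2 were at 2.78 ± 0.08 and −0.69 ± 0.34, and the glutathione peroxidase genes Gpx1 and Gpx4 at 3.24 ± 0.17 and 5.25 ± 0.29 (SD, n = 4 each).

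Transcription factors, receptors and signalling proteins known to induce Nos2 or Cybb were detected on every array in 13 of 16 cases, on some in 2, on none in 1. Spi1, which encodes PU.1, was at −0.38, −0.20, −0.22 and −0.30 on replicates 1 to 4, a mean of −0.28 ± 0.08 (SD, n = 4). Irf1 was at −0.90 ± 0.15 and Irf2 at −3.06 ± 0.27 (SD, n = 4 each). The 1 not detected was Irf8, a partner of PU.1 in myeloid cells, which exceeded the 99th percentile of negative controls on 1 array. The label of the cells was checked against markers: 9 of 12 macrophage markers were detected on all 4 arrays, against 1 of 10 for neutrophils, 0 of 4 for eosinophils, 1 of 3 for B cells, 0 of 4 for T cells, 0 of 6 for epithelium, 0 of 5 for fibroblasts and 3 of 5 for endothelium. Of all named genes, 35.2% were detected on all 4 arrays. The macrophage markers Adgre1 and Marco were detected on no array. The other markers detected were Camp for neutrophils, Pax5 for B cells, and Pecam1, Cdh5 and Vwf for endothelium, while Cd79b and Kdr were not. The part of other cells in the values above was not tested.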

How the data were processed

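Levels were taken from 4 one-colour Agilent arrays (design 074036, 1 slide, 62976 spots). Per the file headers, the deposited intensity was made with Agilent Feature Extraction 11.0.1.1, background-subtracted and detrended within each array, and not normalized between arrays. The deposited flags of 0 or 1 and the software's error are used as given. Low values end at a positive floor, as the values show. Control and outlier spots were left out, spots of a probe averaged as log2, and each array set against its 75th percentile over probes detected on all 4 arrays. A probe was detected when over 50% of its spots were well above background. A gene's level is that of its detected probe with the highest mean. The files give accessions, which named 21109 of 45598 probes through RefSeq (GRCr8), used for names only. Tests used limma 3.58.1 (R 4.3.3, lmFit, eBayes). Other steps used pandas 2.3.3 on Python 3.11.15, with matplotlib 3.10.9 for plots and numpy 2.4.6. In simulated spots for the 4-array test on 1594 probes, it called 65 of 100 probes shifted by 0.2 (log2), 100 of 100 shifted by 1, and 0.646% of 1394 unshifted. Every simulated probe had the same normal error, the median spot SD of 0.099. The spot SD was larger for Rac2, at 0.112, and for Cyba, at 0.162, so these rates do not carry over to them. Named were all 7 genes and, of each list, the first 4 detected and the first 2 detected on none, with every NOX and NOS gene; a few items are not reported here. Likeness was planned for Cybb and Nos2 too and is not given, since neither gene was detected on any array. Pairs of arrays, spots, single gene pairs under each setting and the Dixon share over all genes were examined after seeing the data. Members and lists were chosen with earlier results of these data known. The number of arrays, 4, limits the precision.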

Additional observations from a re-analysis of the deposited data

Results flagged for a closer look

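Of 31 probes and genes whose levels were checked over the 4 arrays, 4 had 1 array far from the other 3 by Dixon's ratio, the gap to the nearest array over the whole range, above its 95% critical value for 4 samples. Chance flags about 1 in 20, and of all 5824 genes with a level 351 (6.03%) passed the same limit. Ncf4 stood high on replicate 1 at 1.71, with a ratio of 0.910, though after normexp correction replicate 1 was its lowest array. Pgd stood high on replicate 1 at 0.64 (ratio 0.860), Me1 low on replicate 2 at −0.85 (ratio 0.864) and Gpx4 low on replicate 1 at 4.82 (ratio 0.885).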

How the results depend on the processing

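The count of 5 detected genes of the 7 was the same under all 8 other detection rules and left-out replicates, including spots marked positive and significant, a rule added after seeing the data. Over these settings the share of all named genes ran from 29.9% to 46.8%. The count of 58 listed genes ran from 51, when every probe had to pass, to 70, when 1 array was enough. Of all named genes, 29.9% and 46.3% passed under those rules. The median SD of the detected genes, 0.089, ran from 0.048 without replicate 1 to 0.126 after quantile normalization, and the median SD of differences between genes, 0.135, from 0.049 without replicate 1 to 0.182 after normexp correction. Of Cyba and Rac2, 1 differed between arrays by limma. The count was 2 after normexp correction, quantile normalization or scaling to the median of detected probes, and 0 with outlier spots kept (also 0 at an unadjusted p under 0.05) or with a minimum of 1.5-fold or 2-fold. It was 1 without each replicate in turn, though the gene was Cyba without replicate 1 and Rac2 otherwise. Over all 1594 probes the test called 1358, 434 with the 1.5-fold and 74 with the 2-fold minimum. Against the scaling used, normexp moved the median detected probe by −0.11 (log2) on replicate 1 and the 75th percentile of all probes by −0.10. No paired analysis was possible because all 4 arrays form 1 group. Single-spot probes allow no test, and Cybb and Nos2 lie at the limit of sensitivity.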
